A study of Homo sapiens with 2 samples.

Results

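The genes described are the cyclins, the cyclin-dependent kinases (CDKs), the CDK inhibitors, the E2F transcription factors and the CDC25 phosphatases, as measured in HL-60, a leukaemia cell line of human promyelocytes. Members were chosen by their gene symbol in the platform annotation: cyclins A to L, the numbered CDKs, CDKN1, CDKN2 and CDKN3 genes, E2F1 to E2F8 and CDC25A to CDC25C. The rule used no measured value, but it was chosen with earlier results of these data known. It gave 57 genes of the 18404 with a symbol of their own, represented by 58 of 19158 probe sets that carry 1 symbol. Total RNA of the wild-type line, with no added agent and no genetic change named in the labels, was measured on 2 Affymetrix Human Gene 1.0 ST arrays, labelled replicates 1 and 2. The arrays form 1 group, so nothing was compared between treatments or genotypes, and no p-value was computed. Nothing in the labels ties the replicates to separate cultures, so the spread between them may be technical.

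A CDK is a protein kinase that is inactive until it binds a cyclin. D cyclins with CDK4 and CDK6, then E cyclins with CDK2, phosphorylate the retinoblastoma protein, which releases E2F factors to transcribe the genes of DNA replication. A cyclins act through S phase, and B cyclins with CDK1 drive mitosis once CDC25 phosphatases have removed an inhibitory phosphate. INK4 inhibitors (the CDKN2 genes) bind CDK4 and CDK6, and CIP/KIP inhibitors (the CDKN1 genes) bind cyclin-CDK complexes. Other cyclins and CDKs control transcription by RNA polymerase II. In myeloid cells, exit from this cycle accompanies terminal maturation.

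Values are log2 signals made by the authors with RMA, and n = 2 arrays for every mean ± SD. A gene was called above the olfactory threshold where it exceeded, on both arrays, the 95th percentile of 359 olfactory receptor genes, and otherwise not above background. These are sensory receptors with no known role in myeloid cells, and their limits were 2.98 on replicate 1 and 2.88 on replicate 2. A second, stricter threshold was the same percentile of 115 keratin-associated protein, bitter taste receptor and beta-defensin genes (5.41 and 5.23). Of these 115 genes, 37 themselves passed the olfactory threshold. A gene between the limits is called above the olfactory threshold and no more. A signal also depends on the probes, so values of different genes are not relative transcript amounts. In RNA of a whole culture, fewer cells in a phase of the cycle and less transcript per cell cannot be told apart. The labelled cell type was checked against fixed markers. Of 14 promyelocyte markers 13 passed the olfactory threshold and 6 the second, with the transcription factor gene MYB highest (9.41 ± 0.17) and KIT lowest and not above background (2.09 ± 0.18). Of 5 monocyte markers 0 passed. Of 4 late granulocyte markers 2 passed, as did 2 of 5 T cell, 3 of 4 B cell, 1 of 4 erythroid and 2 of 6 epithelial, stromal and liver markers, and none of these passed the second threshold. Among all genes the shares above these limits were 55.8% and 17%, and among promyelocyte markers 92.9% and 42.9%. At the olfactory limit the B cell share (75%) lay above that of all genes. The late granulocyte (50%), T cell (40%), epithelial, stromal and liver (33.3%), erythroid (25%) and monocyte (0%) shares lay below it. The olfactory limit alone is thus a weak check of cell type.

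Most of the cell cycle regulators gave signal above the olfactory threshold. Of the 57 members, 52 exceeded the olfactory threshold on both arrays (91.2%, where all genes gave 55.8%) and 23 exceeded the second (40.4%, where all genes gave 17%). The median signal of the members was 5.12, and that of all genes was 3.33. The 5 members not above background were the germline cyclin gene CCNA1, the kinase genes CDK11B, CDK15 and CDK20, and the inhibitor gene CDKN1A. None of these 5 exceeded the olfactory threshold on either array. Families differed in how many members passed the second threshold: 12 of 20 cyclins, 9 of 19 CDKs, 1 of 7 inhibitors, 1 of 8 E2Fs and 0 of 3 CDC25 genes. The difference between families was not tested.

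**Figure D1:**
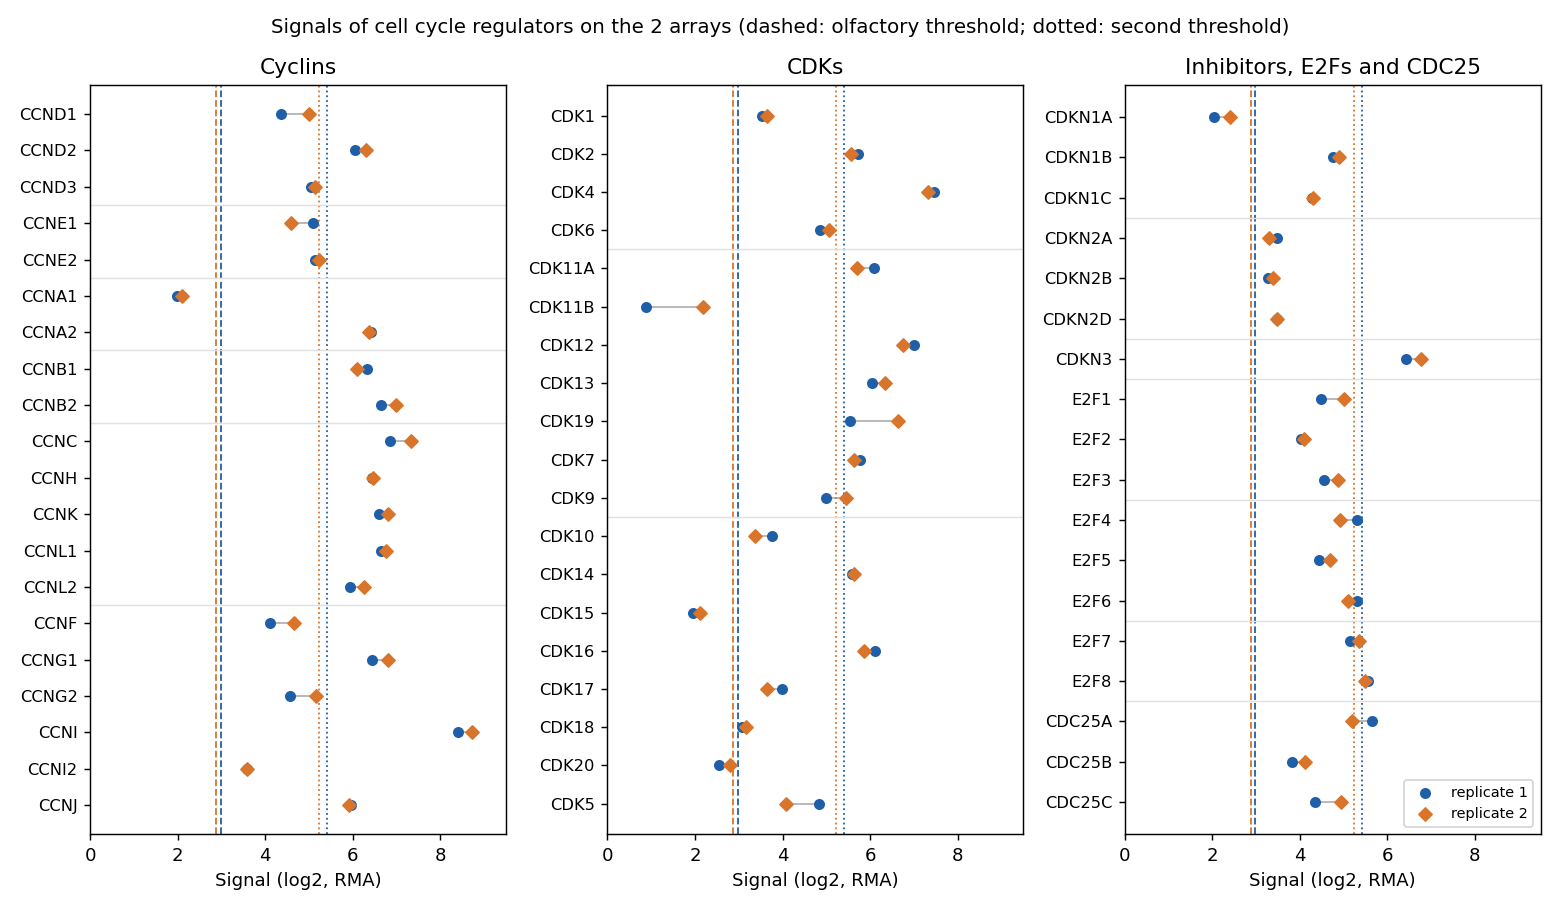
Signal (log2, RMA) of each of the 57 members on replicate 1 (circles) and replicate 2 (diamonds), grouped by role, with the olfactory threshold dashed and the second threshold dotted in the colour of its array. A grey line joins the 2 values of a gene. All 5 cyclins of types C, H, K and L lie right of both thresholds, and the INK4 genes CDKN2A, CDKN2B and CDKN2D lie between 3.28 and 3.49, just right of the olfactory threshold.

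The promoters of several members carry the letters that E2F factors, the CCAAT-binding factor NF-Y and the DREAM and MuvB complexes are known to bind. RefSeq promoters (GRCh38.p14, 250 bases before to 50 after a start) were found for 50 of the 57 members, with 74 windows in all. E2F-type letters were searched as TTTCCCGC, TTTCGCGC, TTTGCCGC and TTTGGCGC, the NF-Y box as CCAAT and the cell cycle homology region as TTTGAA, each on both strands, and matches of different motifs overlapped in 0 cases. E2F-type letters stood in the promoters of 8 of the 50 genes (16%), where 5.51% of the 14230 measured genes with a promoter had them. Above the olfactory threshold, 7 of 45 members (15.6%) and 6.79% of the 8264 genes with a promoter had them. By window the shares were 9 of 74 (12.2%) and 3.31% of all 35116 windows. CCAAT stood in 25 member genes (50%, where measured genes gave 42.2%) and in 44.6% of member windows (34.6% of all windows). TTTGAA stood in 9 member genes (18%, where measured genes gave 15.7%) and in 14.9% of member windows (15.2% of all windows). A match is a description of letters and not a binding site shown in these cells.

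The 8 genes with E2F-type letters were E2F1, E2F2, E2F3, CDC25A, CDK1, CDK10, CDK11B and CDK19. All 3 activator E2F genes were thus among them. With a promoter here, 0 of 17 cyclin genes and 0 of 6 inhibitor genes had them, where 5.51% of measured genes did. No promoter was found for CCND1, CCND2, CCNE2, CDK2, CDKN1C, E2F5 and E2F8. The difference between families in these letters was not tested. Of the 8, 7 were above the olfactory threshold, CDK11B being the exception, as were 45 of all 50 members with a promoter. CDK19 alone of the 8 passed the second, where 23 of all 57 members did. The 250 bases before the start are printed for 5 genes, in the direction of transcription and with matches in capitals. E2F1 and CDC25A show E2F-type letters beside CCAAT boxes, CDK1 holds all 3 motifs, CCNB2 shows 4 CCAAT boxes and TTTGAA, and CDKN1A has no match. E2F3 and CDK19 also held all 3 motifs in a window. CCNF, CCNG1, E2F3 and E2F7 also had 4 CCAAT boxes in a window, with TTTGAA in CCNF and E2F3, and CCNB1 had 2. CDK4 and CCNH, above both thresholds, had no match either, while CDK11B and CDK15, not above background, had CCAAT. A link of matches to signal was not tested. The E2F1 stretch is chr20:33686386-33686635 (minus strand), that of CDC25A chr3:48188418-48188667 (minus strand), that of CDK1 chr10:60778228-60778477 (plus strand, the downstream of 2 listed starts), that of CCNB2 chr15:59104896-59105145 (plus strand) and that of CDKN1A chr6:36678464-36678713 (plus strand).
E2F1: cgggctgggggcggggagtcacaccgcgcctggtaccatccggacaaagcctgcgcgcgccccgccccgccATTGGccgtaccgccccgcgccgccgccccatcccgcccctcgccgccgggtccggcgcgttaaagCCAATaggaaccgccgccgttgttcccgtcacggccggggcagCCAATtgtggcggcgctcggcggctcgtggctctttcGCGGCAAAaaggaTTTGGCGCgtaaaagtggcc
CDC25A: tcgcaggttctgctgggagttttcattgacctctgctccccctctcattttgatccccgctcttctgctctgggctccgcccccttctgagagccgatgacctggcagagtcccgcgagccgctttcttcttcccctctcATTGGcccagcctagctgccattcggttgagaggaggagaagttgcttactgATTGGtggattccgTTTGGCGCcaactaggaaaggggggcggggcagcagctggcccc
CDK1: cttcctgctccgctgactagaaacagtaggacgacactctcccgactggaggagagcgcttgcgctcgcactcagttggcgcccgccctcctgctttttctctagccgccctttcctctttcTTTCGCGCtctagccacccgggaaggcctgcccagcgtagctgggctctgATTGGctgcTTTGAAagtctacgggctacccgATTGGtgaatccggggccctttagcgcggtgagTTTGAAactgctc
CCNB2: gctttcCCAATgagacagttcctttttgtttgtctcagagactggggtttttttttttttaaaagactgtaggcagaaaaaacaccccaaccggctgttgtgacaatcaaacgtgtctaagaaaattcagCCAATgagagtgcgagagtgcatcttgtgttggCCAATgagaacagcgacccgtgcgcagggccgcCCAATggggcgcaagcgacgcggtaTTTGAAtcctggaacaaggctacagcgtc
CDKN1A: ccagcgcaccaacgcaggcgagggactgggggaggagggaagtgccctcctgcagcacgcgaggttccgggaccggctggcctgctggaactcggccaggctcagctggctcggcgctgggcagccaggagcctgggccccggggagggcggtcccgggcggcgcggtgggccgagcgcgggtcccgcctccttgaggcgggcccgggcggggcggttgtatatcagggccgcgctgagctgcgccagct

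In E2F1 the 2 E2F-type matches began 33 and 20 bases before the start, and 3 CCAAT boxes lay upstream of them. In CDC25A the match began 44 bases before the start, downstream of 2 CCAAT boxes. E2F2 and E2F3 had theirs 42 and 53 bases before a start. CDK10 and CDK19 had theirs 48 and 145 bases before a start, and CDK11B had it 13 bases after the start. CCNB2 had 4 CCAAT boxes and TTTGAA 29 bases before the start, and CDC25C had TTTGAA 30 bases before 1 of its starts. CDK1 had E2F-type letters 128 bases before the start printed here and 20 bases after its upstream start, and TTTGAA 69 and 13 bases before the start printed here. CpG, the dinucleotide that DNMT1 methylates, numbered 28 per window of 300 bases at the median of the member genes, compared with 22 over all measured genes and 26 over genes above the olfactory threshold. CDKN1A, which was not above background, had 29 CpG, and CCNA1 had 35, whereas the 3 windows of CDK15 had 1 to 2. No methylation was measured in these files.

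**Figure D2:**
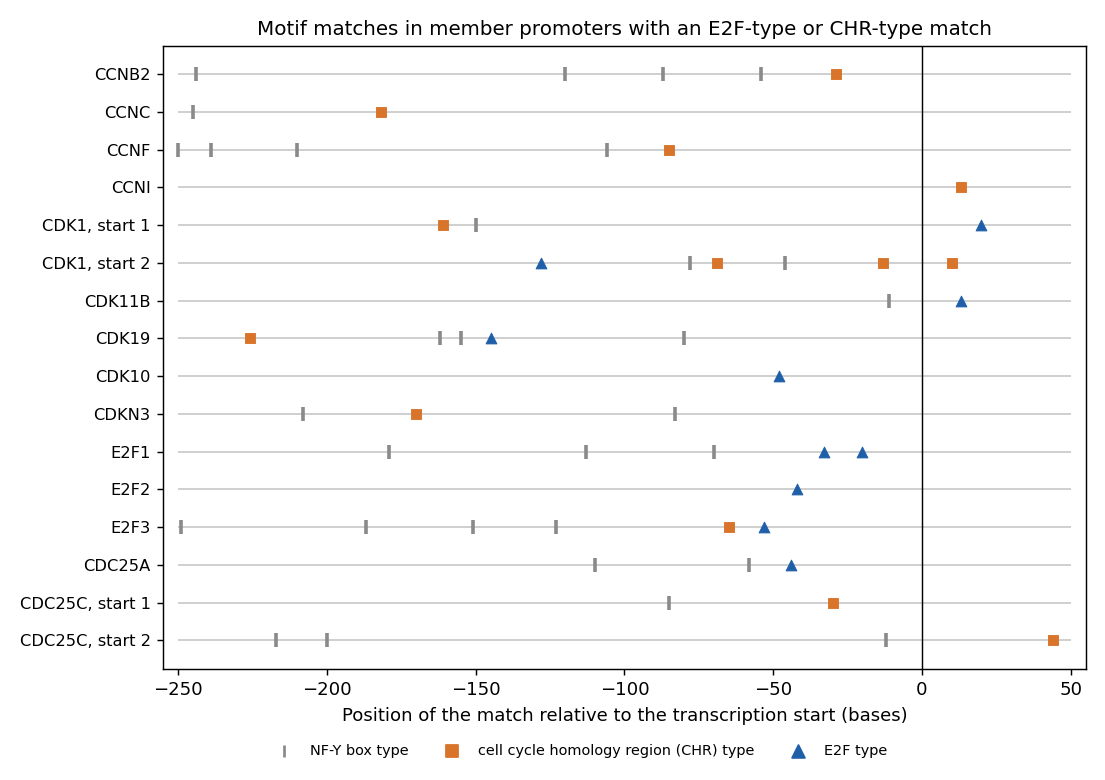
Positions, in bases from the transcription start (vertical line), of E2F-type (triangles), cell cycle homology region type (squares) and NF-Y box type (bars) matches in the 16 promoters of 14 member genes that hold either of the first 2. In E2F1, E2F2, E2F3 and CDC25A the E2F-type matches begin 20 to 53 bases before the start.

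All 3 D cyclin genes, which couple growth factor signals to CDK4 and CDK6, were above the olfactory threshold. CCND2 read 6.06 on replicate 1 and 6.32 on replicate 2 (6.19 ± 0.18) and alone passed the second threshold. CCND1 read 4.37 and 4.99 (4.68 ± 0.44), and CCND3 read 5.05 and 5.13 (5.09 ± 0.06). No D cyclin gene was lower on replicate 2. The E cyclins, which partner CDK2 at the start of S phase, passed the olfactory threshold only. CCNE1 read 5.10 and 4.58 (4.84 ± 0.36), and CCNE2 read 5.14 and 5.24 (5.19 ± 0.07), the latter just above the second threshold on replicate 2 alone.

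The A and B cyclins of proliferating cells were above both thresholds on both arrays. CCNA2, the somatic A cyclin, read 6.41 and 6.38 (6.39 ± 0.02). CCNA1, known mainly from male meiosis and from some myeloid leukaemias, read 1.97 and 2.10 (2.04 ± 0.09), a signal that 47.1% of the olfactory receptor genes exceeded. CCNB1 read 6.33 and 6.09 (6.21 ± 0.17) and CCNB2 read 6.64 and 6.99 (6.82 ± 0.24). The paralogs thus moved in opposite directions between the arrays, each by less than the SD of 0.39 that all genes showed for this difference.

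Cyclins of transcription and RNA processing passed both thresholds in 5 of 5 cases. CCNC, the cyclin of the Mediator kinase module, read 6.85 and 7.33 (7.09 ± 0.33). CCNH, the cyclin of the CDK-activating kinase, read 6.43 and 6.46 (6.45 ± 0.02). CCNK, the partner of CDK12 and CDK13, read 6.61 and 6.81 (6.71 ± 0.14). All 5 genes of this class were higher on replicate 2. CCNL1 and CCNL2, cyclins linked to splicing, read 6.64 and 6.76 (6.70 ± 0.09) and 5.93 and 6.27 (6.10 ± 0.24). CCNL2 is the only member with 2 probe sets, which read 6.32 ± 0.31 and 5.88 ± 0.17.

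Of the cyclins F, G, I and J, 6 of 6 passed the olfactory threshold and 3 the second. CCNI, an atypical cyclin, read 8.41 and 8.73 (8.57 ± 0.22), while its relative CCNI2 read 3.58 on both arrays, below the 99th percentile of the olfactory receptors. CCNG1 read 6.43 and 6.81 (6.62 ± 0.26), and CCNG2 read 4.58 and 5.16 (4.87 ± 0.41). CCNF, the F-box protein of a ubiquitin ligase, read 4.10 and 4.65 (4.38 ± 0.39). In these last 3 genes replicate 2 was the higher array. CCNJ read 5.96 and 5.92 (5.94 ± 0.03).

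The 4 measured CDKs of the cell cycle were all above the olfactory threshold, and CDK4 and CDK2 above the second. CDK4 read 7.45 and 7.32 (7.39 ± 0.09) and CDK2 read 5.73 and 5.57 (5.65 ± 0.11). CDK6, which shares the D cyclins with CDK4, read 4.85 and 5.06 (4.96 ± 0.15). CDK1, the mitotic kinase, read 3.52 and 3.64 (3.58 ± 0.08), and 32 of the 115 genes of the second background set (27.8%) read higher. Its partners CCNB1, CCNB2 and CCNA2 passed the second threshold and CDK1 did not, on a single probe set. CDK1 did not pass the 99th percentile of the olfactory receptors (3.60 on replicate 1 and 3.76 on replicate 2), so 3 of the 4 kinases passed that threshold. The arrays differed by 0.21 at most in this class.

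Among CDKs of transcription and CDK activation, 6 of 7 passed the olfactory threshold and 5 the second. CDK7, the CDK-activating kinase, read 5.76 and 5.64 (5.70 ± 0.09). CDK9, which releases paused polymerase, read 5.00 and 5.45 (5.23 ± 0.31) and passed the second threshold on replicate 2 only. CDK12 read 7.01 and 6.76 (6.88 ± 0.18) and CDK13, its paralog, 6.06 and 6.34 (6.20 ± 0.20). These kinases passed the first threshold on each array. CDK19, a Mediator kinase, read 5.54 and 6.64 (6.09 ± 0.78), the largest gap between arrays among members above the olfactory threshold. CDK11A read 6.09 and 5.71 (5.90 ± 0.27), whereas CDK11B read 0.88 and 2.19 (1.54 ± 0.93). CDK11A and CDK11B are near-identical neighbouring copies that can share probes, so neither value is certain for its own gene.

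Of the other CDKs, 6 of 8 passed the olfactory threshold and 2 the second. At the 99th percentile 3 of the 8 passed, without CDK10, CDK17 and CDK18. CDK16, a kinase of differentiated cells activated by cyclin Y, read 6.12 and 5.85 (5.99 ± 0.19), and CDK14, another cyclin Y partner, 5.60 and 5.64 (5.62 ± 0.03). CDK5, the neuronal kinase, read 4.84 and 4.08 (4.46 ± 0.54). No other member was lower on replicate 2 by as much as CDK5. CDK17, a kinase of the same branch as CDK16, read 3.82 ± 0.24, CDK10 read 3.75 and 3.38 (3.57 ± 0.27) and CDK18 3.07 and 3.17 (3.12 ± 0.07). CDK18 cleared the olfactory threshold by little, and 34.8% of the second background set read higher. CDK20 read 2.54 and 2.79 (2.67 ± 0.18) and CDK15 1.96 and 2.12 (2.04 ± 0.11), both below the olfactory threshold on each array.

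Of the 7 CDK inhibitor genes, 6 passed the olfactory threshold, and CDKN3 alone passed the second. CDKN3, a phosphatase that acts on CDKs and is itself high in dividing cells, read 6.43 and 6.77 (6.60 ± 0.25). Among the CIP/KIP genes, CDKN1A, which encodes p21, read 2.03 and 2.40 (2.22 ± 0.26), and 32.6% of olfactory receptor genes read higher. CDKN1B, which encodes p27, read 4.76 and 4.89 (4.82 ± 0.09), and CDKN1C, the imprinted p57 gene, read 4.28 and 4.31 (4.29 ± 0.02). CDKN1A was thus the CIP/KIP gene not above background.

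The 3 measured INK4 genes, of 4 listed, lay close to the olfactory threshold, and CDKN2C was not among the measured members. CDKN2A, which encodes p16 and p14ARF, read 3.48 and 3.28 (3.38 ± 0.14), and CDKN2B, the p15 gene, read 3.28 and 3.38 (3.33 ± 0.07). CDKN2D, the p19 gene, read 3.49 on both arrays. These 3 genes exceeded the 95th percentile of the olfactory receptors but not the 99th, and 34 or 35 of the 115 genes of the second background set read higher than each. Whether HL-60 lacks the CDKN2A and CDKN2B locus on 9p21, or carries a change within CDKN2A, was not examined, since the files hold no measurement of DNA. A fixed list of 9p21 genes, not the whole band, held 9 measured genes, CDKN2A and CDKN2B among them. Of these 9, 5 passed the olfactory threshold (55.6%, where all genes gave 55.8%) and 0 the second. The methylthioadenosine phosphorylase gene MTAP, next to CDKN2A and widely expressed, read 4.72 and 4.44 (4.58 ± 0.20). Of the 9 listed genes it alone was above the 99th percentile. IFNE, an interferon gene of the same band, read 1.20 and 1.35 (1.27 ± 0.10).

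All 8 E2F genes were above the olfactory threshold, and E2F8 alone passed the second. The activators E2F1 (4.49 and 5.01, 4.75 ± 0.36), E2F2 (4.03 and 4.10, 4.07 ± 0.05) and E2F3 (4.55 and 4.87, 4.71 ± 0.23), which drive S phase genes, were each higher on replicate 2. Of the factors that chiefly repress, E2F4 read 5.32 and 4.92 (5.12 ± 0.28), E2F5 4.44 and 4.68 (4.56 ± 0.18) and E2F6 5.31 and 5.11 (5.21 ± 0.14). The atypical E2F7 and E2F8, which repress E2F targets late in S phase, read 5.14 and 5.36 (5.25 ± 0.16) and 5.56 and 5.49 (5.53 ± 0.05). The largest difference between the arrays in an E2F gene was 0.51, in E2F1. Of 17 E2F target genes of replication, 17 exceeded the olfactory threshold and 14 of these the second, from CDT1 (3.69 ± 0.02) to TYMS (9.60 ± 0.12). Of all genes, 55.8% and 17% exceeded these thresholds.

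The CDC25 phosphatases, which activate CDKs, passed the olfactory threshold in 3 of 3 cases and the second in 0. CDC25A, the G1 to S phase member, read 5.65 and 5.20 (5.43 ± 0.32) and passed the second threshold on replicate 1 only. CDC25B read 3.81 and 4.12 (3.96 ± 0.21), and the mitotic CDC25C read 4.35 and 4.94 (4.64 ± 0.42). CDC25A was lower on replicate 2, whereas CDC25B and CDC25C were higher.

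The partners of these genes were mostly above both thresholds. Of 6 pocket protein and DP genes, 5 passed both. The retinoblastoma gene RB1 read 6.52 and 6.57 (6.55 ± 0.03), its relatives RBL1 7.03 and 6.66 (6.84 ± 0.26) and RBL2 5.74 and 5.52 (5.63 ± 0.15). Each of these binds and restrains E2F factors. TFDP1, the main dimer partner of E2F factors, read 9.13 and 8.82 (8.97 ± 0.22), TFDP2 read 6.56 and 6.89 (6.73 ± 0.23), and TFDP3 was not above background (2.21 ± 0.06). Of 7 MuvB and mitotic activator genes, 7 exceeded the olfactory threshold and 5 of these the second, with RBBP4 at 7.45 ± 0.38 and LIN52 at 4.68 ± 0.28.

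Of 10 genes listed as cell cycle kinases and CDK subunits, 10 passed the olfactory threshold and 7 the second. Of all genes, 55.8% and 17% did. WEE1, which places the inhibitory phosphate that CDC25 removes, read 6.28 ± 0.04, and PKMYT1, which acts likewise, 4.80 ± 0.10. The CDK subunits CKS2 and CKS1B read 8.49 ± 0.32 and 6.42 ± 0.34, the CDK7 assembly factor MNAT1 4.81 ± 0.32 and the checkpoint kinase CHEK2 3.35 ± 0.21. All 14 measured genes listed for the degradation of cyclins and inhibitors, or its control, exceeded the olfactory threshold. The second was exceeded by 7 of them (50%, where all genes gave 17%). SKP2, which targets p27 for destruction, read 8.66 and 7.84 (8.25 ± 0.58). The mitotic activator of the anaphase-promoting complex CDC20 read 5.49 ± 0.10, its G1 counterpart FZR1 4.07 ± 0.24 and the complex subunit ANAPC10 3.70 ± 0.26.

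Among 7 cyclin genes outside the naming rule, 6 exceeded the olfactory threshold (85.7%, where all genes gave 55.8%). Of these, 2 passed the second as well (28.6% of the 7, where all genes gave 17%). CCNT1, the partner of CDK9, read 7.01 and 6.62 (6.81 ± 0.28), and CNTD1, a meiotic gene, was the lowest at 2.58 ± 0.18 and not above background. All 7 were lower on replicate 2, as were 9687 of all 18404 genes. Of the 20 member cyclins, 15 were higher, where 42.1% of all genes were. This difference was not tested. Of 6 CDK5 activators and CDK-like kinases, 1 passed the olfactory threshold (16.7%) and 0 the second, both below the shares of all genes. CDK5R2, an activator of CDK5 in neurons, read 3.33 ± 0.05 and CDKL2 1.88 ± 0.07.

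**Figure D3:**
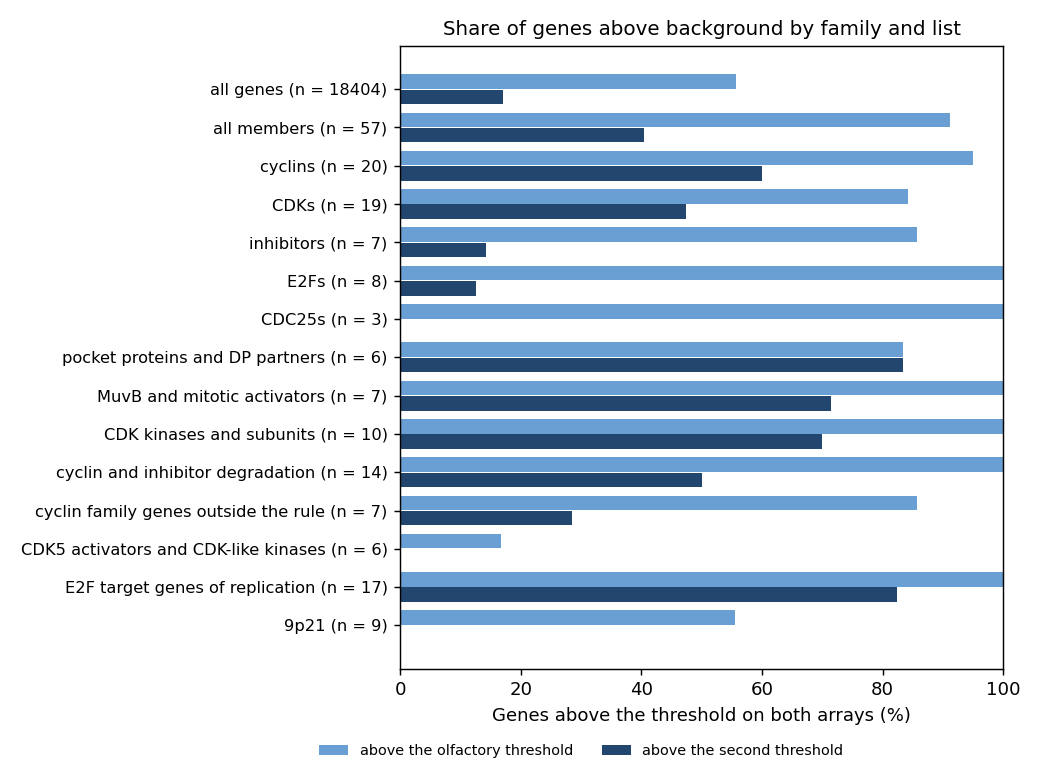
Percent of genes above the olfactory threshold (light bars) and the second threshold (dark bars) on both arrays, for all genes, for the members and their families, and for lists of partner genes, with the number of measured genes in brackets. All genes stand at 55.8% and 17%, cyclins at 95% and 60%, E2Fs at 100% and 12.5%, and the listed 9p21 genes at 55.6% and 0%.

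Of the 57 members, 48 differed between the arrays by 0.5 or less. Replicate 2 was higher in 37 of 57 members and lower in 18 (64.9% higher, where 42.1% of all genes were), and CCNI2 and CDKN2D had identical values, as 5.23% of all genes had. The median difference, replicate 2 minus replicate 1, was 0.12 over members and -0.04 over all genes. Over genes above the olfactory threshold it was 0.10 for members and 0.00 for all. Of these, 32 of 52 members and 4891 of all 10262 genes were higher on replicate 2. By family, 15 of 20 cyclins, 10 of 19 CDKs, 5 of 7 inhibitors, 5 of 8 E2Fs and 2 of 3 CDC25 genes were higher on replicate 2. With 1 array on each side these differences have no replicate check. Of the 14 promyelocyte markers, 3 differed between the arrays by over 1, namely CTSG (8.99 and 7.24), PRTN3 (7.95 and 6.47) and MS4A3 (5.98 and 4.88), all lower on replicate 2, while the median difference of the 14 was -0.03. Their part in the differences of the members was not tested.

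Of the 57 members, 2 (3.51%) differed between the arrays by over 1 (log2), compared with 1.96% of all genes. They were CDK19 and CDK11B, and CDK11B was not above background on either array. A total of 9 members differed by more than 0.5 (15.8%, where 17.5% of all genes did). Of these, 7 were higher on replicate 2 (12.3%, where 7.95% of all genes were), namely CDK11B (1.31), CDK19 (1.10), CCND1 (0.63), CDC25C (0.59), CCNG2 (0.59), CCNF (0.55) and E2F1 (0.51). The 2 lower ones were CDK5 (-0.76) and CCNE1 (-0.51), 3.51% of members where 9.58% of all genes were lower. Above the olfactory threshold, 6 of 52 members and 988 of all 10262 genes were higher by more than 0.5. Lower by more than 0.5 were 2 of these members and 925 of these genes.

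**Figure D4:**
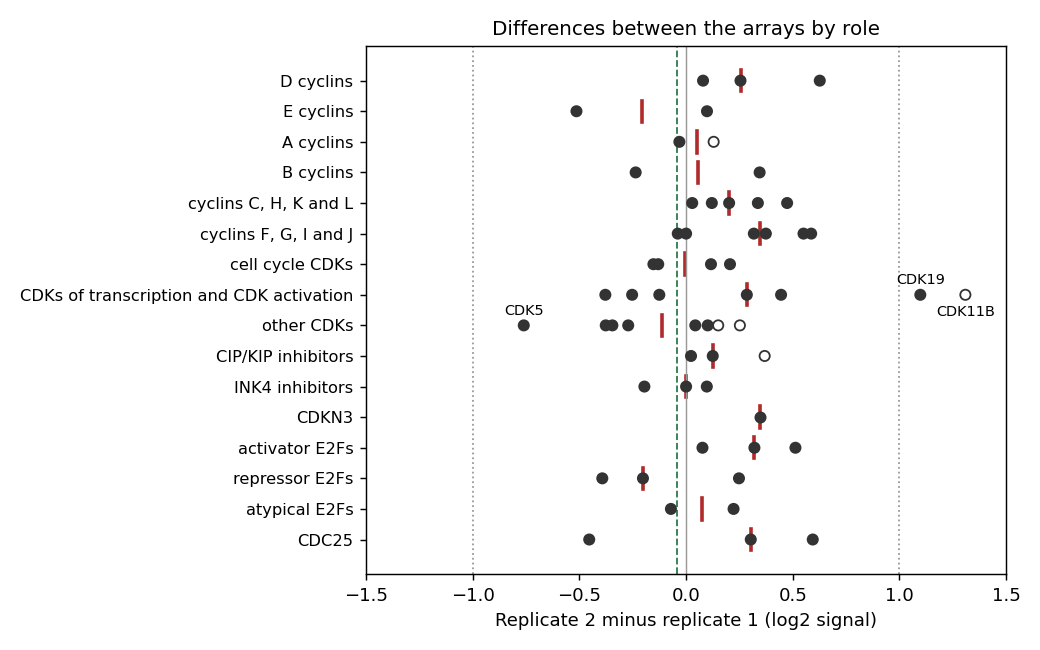
Difference of the log2 signal, replicate 2 minus replicate 1, for each member by role. Filled points are above the olfactory threshold and open points are not, red bars are class medians, the dashed line is the median of all genes (-0.04) and dotted lines mark differences of 1. Only CDK19 (1.10) and CDK11B (1.31) lie beyond them.

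**Figure D5:**
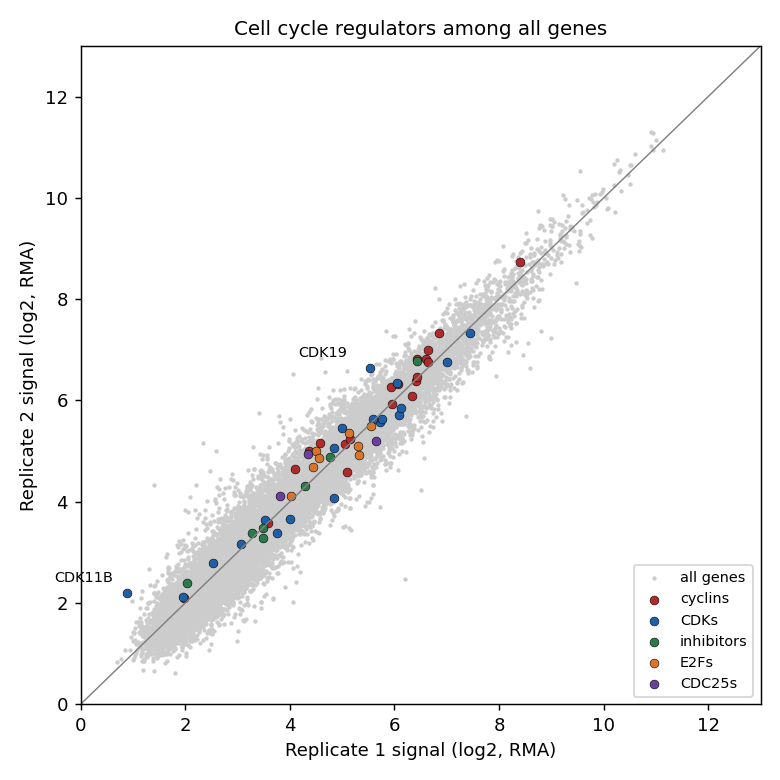
Signal on replicate 2 against replicate 1 (log2, RMA) for all 18404 genes in grey and for the 57 members coloured by family, with the line of equal signal. Most members lie near the line, CDK19 lies above it (5.54 and 6.64), and CDK11B lies at the dim edge of the cloud (0.88 and 2.19).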

How the data were processed

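Total RNA of HL-60 cells was amplified, labelled and hybridised to Affymetrix Human Gene 1.0 ST arrays (labels' protocols). Per the submitters' processing notes, the authors made the deposited log2 signals with RMA; its software and the set of arrays normalized jointly are not given in the sources used. Base 2 was inferred: the highest value, 12.9, would as a natural log stand for 407306, too high for a scanner's range. Scanner files were not used, so background correction and scan batches were not examined. RMA removes global differences in RNA content.

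Of 32321 probe sets, 19158 carried 1 symbol, 1388 several and 11775 were not listed in the annotation. Symbols were updated through Entrez IDs (19128 found in RefSeq, GRCh38.p14). The 637 genes with several probe sets took their mean. Members with no single-symbol probe set here were not analysed, and 1 list is not reported here.

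The 2 arrays form 1 group, so no test was made. The members and lists were chosen with earlier results of these data known. Every member is named with its values. Of the partner and 9p21 lists the highest, the lowest and fixed genes are named. Marker lists are given by counts, with the highest and lowest promyelocyte marker and 3 more named after their values were seen. Alternatives were other thresholds, background sets, normalizations (quantile, and loess with a span of 0.3), probe set choices, single arrays, a dim gene filter, updated symbols and a narrower motif. Python 3.11.15, numpy 2.4.6, pandas 2.3.3, statsmodels 0.14.6 and matplotlib 3.10.9 were used.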

Additional observations from a re-analysis of the deposited data

Results flagged for a closer look

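A probe set that carries 2 symbols, CDK8 and ADRA1B, was left out of the comparisons because no gene of its own can be named. It read 8.08 on replicate 1 and 8.30 on replicate 2 (8.19 ± 0.16, n = 2) and exceeded both thresholds on both arrays. CDK8 is the paralog of CDK19 in the Mediator kinase module. The other probe sets that share a member symbol, TEN1-CDK3 with CDK3 and CCNB3 with BCOR, read 2.89 ± 0.32 and 2.46 ± 0.37 and did not exceed the olfactory threshold on both arrays.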

How the results depend on the processing

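No paired analysis was possible because the study has a single group. With the second background set as threshold, 23 members passed in place of 52, and 0 listed genes of 9p21 in place of 5. With the 99th percentile as threshold 44 members and 1 listed gene of 9p21 (MTAP) passed. The 8 members lost were CDKN2A, CDKN2B, CDKN2D, CDK1, CDK10, CDK17, CDK18 and CCNI2. The measured INK4 genes thus fell from 3 to 0 and other CDKs from 6 to 3. Members that differed by more than 1 between the arrays numbered 1 in place of 2 with genes above the olfactory threshold only, since fewer genes were compared. They numbered 9 at a threshold of 0.5. With TTTGGCGC alone, 4 in place of 8 member genes held E2F-type letters. The highest probe set per gene and quantile normalization left the counts of members, of 9p21 genes and of each class within 1.5 times, and updated symbols did so for the counts of members. On each array alone 52 members passed the olfactory threshold and 24 to 26 the second. The median difference over members ranged from 0.10 to 0.12 over its alternatives, and quantile normalization moved that of all genes from -0.04 to 0.00. With 2 arrays, gaps of single genes cannot be told from technical spread.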
